A study of Mus musculus with 2 samples.

Results

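The miR-30 family is a set of related miRNA genes, and 7 of its precursors are among the 1187 miRNA precursors (hairpins) listed for ischemic mouse hindlimb muscle. The members were taken by name. They are mmu-mir-30a and mmu-mir-30c-2, mmu-mir-30b and mmu-mir-30d, and mmu-mir-30e and mmu-mir-30c-1, which form 3 genomic clusters, and mmu-mir-30f, which lies on the strand opposite miR-30e. The rule itself uses no measured value. Small RNA was sequenced in 2 libraries of hindlimb muscle, both taken 1 day after the femoral artery had been removed surgically. The hypercholesterolemic library (HC) is labelled ApoE-/-, and the series' design text adds a high-fat diet for these mice. The normocholesterolemic control (NC) is from C57Bl/6 mice with the genotype label "control", and no diet is given for it. ApoE-/- mice lack apolipoprotein E, a ligand for the clearance of lipoprotein remnants. The sources used here do not give age, sex or the number of mice behind each library. Genotype and diet differed together, as far as the design text states them, and their parts cannot be told apart.

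Each group held 1 library, so the spread between animals could not be estimated and no test was run. Intervals are 95% intervals of counting error and describe these 2 libraries only. Reads were counted without molecular identifiers, so they are not independent molecules. The precursor counts summed to 31198050 in HC and 43848576 in NC. All 9 skeletal muscle markers checked (among them miR-1a, miR-133a, miR-206 and miR-486a) passed a mean of 10 CPM, where CPM is the count divided by a library size scaled by the trimmed mean of M-values (TMM) and multiplied by 1e6. The hepatocyte marker miR-122 was near the limit of detection, at 7 counts in HC against 9 in NC.

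A miRNA acts as a guide of about the length printed here, loaded into an Argonaute protein, and pairs with messenger RNAs mainly through its seed, bases 2 to 8 from the 5′ end. The 5p arms of the miR-30 family have a common seed and are therefore expected to share many targets. In endothelial cells miR-30 is known to repress Dll4, the Notch ligand that restrains vessel sprouting. In heart muscle miR-30 acts, beside miR-133, on connective tissue growth factor, in liver miR-30c lowers the microsomal triglyceride transfer protein needed for lipoprotein assembly, and miR-30a represses the autophagy gene Beclin 1. These targets were not measured in this series.

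The mature sequences are given first because they show why the counts of several members cannot be separated. RefSeq (build GRCm38.p6, the assembly of mm10) had entries for 5 of the 7 members. miR-30b and miR-30d are named only. Capitals mark the seed, and each sequence runs 5′ to 3′.
miR-30a-5p: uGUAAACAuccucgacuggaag
miR-30e-5p: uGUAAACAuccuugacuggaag
miR-30c-5p: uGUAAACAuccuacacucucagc
miR-30f: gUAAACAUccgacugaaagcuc
miR-384-5p: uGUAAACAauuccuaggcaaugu

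miR-30a-5p, miR-30e-5p and miR-30c-5p hold the same seed and the same first 12 bases. Counted from 1 at the 5′ end of miR-30a-5p, miR-30e-5p differs by the single substitution C13U over 22 bases. miR-30c-5p differs from miR-30a-5p by 5 substitutions over those 22 bases, C13A, G14C, G18C, G19U and A20C, and has 1 base more at its 3′ end. miR-30c-5p is cut from both miR-30c-1 and miR-30c-2, so a read of it cannot be assigned to either hairpin. The longest stretch shared by these hairpins had 28 bases, against 18 for miR-30a and miR-30e and 12 for the other pairs among the 4 hairpins compared. miR-30f is the reverse complement of part of the miR-30e hairpin and lies opposite 19 bases of miR-30e-3p. It matches miR-30a-5p over 10 bases, but starts at the base that is the second one in miR-30a-5p, and its seed is shifted by 1 base. Across the 1738 mature sequences of the RefSeq table, 1 precursor outside the family carried the miR-30 5p seed, miR-384.

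The 3p arms fall into other seed groups and are shown because the precursor counts also include them.
miR-30a-3p: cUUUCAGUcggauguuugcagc
miR-30e-3p: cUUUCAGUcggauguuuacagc
miR-30c-1-3p: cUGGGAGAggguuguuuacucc
miR-30c-2-3p: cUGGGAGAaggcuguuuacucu

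miR-30a-3p and miR-30e-3p share a seed and differ by G18A. The 3p arms of miR-30c-1 and miR-30c-2 share another seed and differ by G9A, U12C and C22U, counted on miR-30c-1-3p, so they are the arms that tell these hairpins apart. A precursor count sums both arms. The values below are therefore levels of hairpin loci and not of the 5p guide alone.

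In genomic position (mm10, with GENCODE M21 annotation), the members lie on chromosomes 1, 4 and 15. miR-30a (chromosome 1, 23272269 to 23272339, plus strand) overlaps no other annotated gene. Its partner miR-30c-2 (23291701 to 23291784) lies 19361 bases away, in an exon of the lincRNA Gm27028. miR-30b (chromosome 15, 68337415 to 68337510, minus strand) shares 16 bases with an exon of the noncoding transcript Gm26621. miR-30d (68341208 to 68341289) lies 3697 bases from it, in an exon of the lincRNA Gm20732, and shares 9 bases with the unclassified transcript Gm37296. miR-30e (chromosome 4, 120772606 to 120772697, minus strand) and miR-30c-1 (120769534 to 120769622), 2983 bases apart, both lie in introns of Nfyc, which encodes a subunit of the transcription factor NF-Y. In the annotation miR-30f has the coordinates of miR-30e on the plus strand. The 4 hairpins with a RefSeq sequence had 71 to 92 bases, a GC content of 42.9 to 52.1% and 16 to 20 bases between their arms.

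miR-30a, the main member in this muscle, had 920710 counts in HC and 1341101 in NC. On the CPM scale its level was 28171 in HC and 32041 in NC. It was the precursor with the eighth most counts in both libraries (rank 8), with 2.95% of all precursor counts in HC (exact Clopper-Pearson interval 2.95 to 2.96%) against 3.06% in NC (3.05 to 3.06%). Its level was thus lower in HC, by a log2 fold of -0.19 (HC over NC, TMM scaling, interval -0.19 to -0.18), or 1.14-fold. Comparisons cover the 222 precursors whose mean over both libraries reached 10 CPM, and 45.5% of them had a larger absolute log2 fold than miR-30a.

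miR-30d, the next in level, had 155783 counts in HC and 200532 in NC. Its level was 4766 CPM in HC and 4791 CPM in NC. The log2 fold was -0.0074 (-0.017 to 0.0022), and the interval held 0. Its partner miR-30b, the least abundant member, had 11491 counts in HC and 16031 in NC. Its level was 351.6 CPM in HC and 383.0 CPM in NC, a log2 fold of -0.12 (-0.16 to -0.089). The lower depth of miR-30b gave it the widest interval of the family.

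miR-30e had 117534 counts in HC and 161027 in NC, and the row of miR-30f held the same 2 counts. The strand setting of the counting is not stated, and without strand the reads of miR-30f and miR-30e cannot be told apart. The level at this locus was 3596 CPM in HC and 3847 CPM in NC, a log2 fold of -0.097 (-0.11 to -0.087). In the family sum and in the shares of the family the locus was counted once.

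miR-30c-1 had 54929 counts in HC and 76078 in NC, and miR-30c-2 had 56653 in HC and 78427 in NC. The levels were 1681 and 1818 CPM for miR-30c-1, and 1733 and 1874 CPM for miR-30c-2. miR-30c-2 thus exceeded miR-30c-1 by 1724 counts in HC and 2349 in NC, a ratio of 1.03 in each library. Both had a log2 fold of -0.11 (-0.13 to -0.097). The deposited tables list 0 reads as not unique, while both hairpins hold the whole 5p arm. A read of miR-30c-5p fits both, and the separate levels of the 2 hairpins are uncertain.

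**Figure D1:**
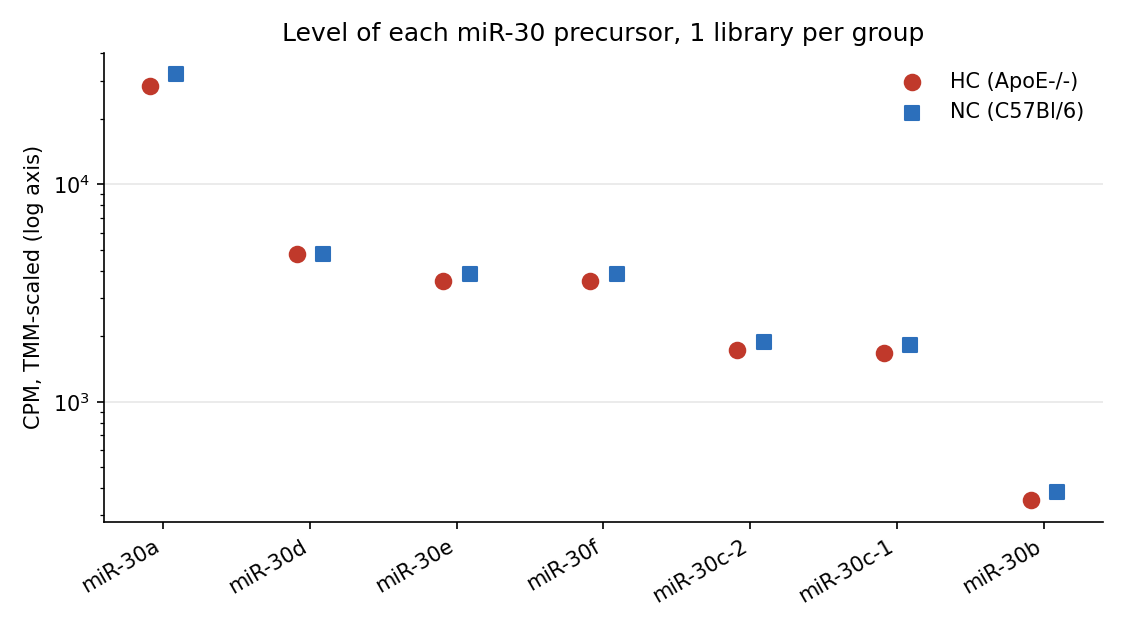
Level of each miR-30 precursor in CPM (TMM-scaled, log axis) in the HC library (circles) and the NC library (squares), 1 library per group and no error bars. miR-30a stands at 28171 and 32041 CPM, far above miR-30d, and the libraries differ little beside the distance between members.

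The order of the members by level was the same in both libraries: miR-30a, miR-30d, miR-30e with miR-30f, miR-30c-2, miR-30c-1, miR-30b. Dividing each CPM by the length of the hairpin changed 0 places in this order. The plot of the levels by library shows the widest step between miR-30a and miR-30d. miR-30d over miR-30e was 1.33 in HC and 1.25 in NC, and miR-30c-1 and miR-30c-2 lay closest together.

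miR-384, the seed relative outside the family (mature sequence on chromosome X, 105344332 to 105344354, minus strand), had 21 counts in HC and 39 in NC. It was picked by its seed and lies outside the rule for named miRNAs. Its level was 0.642 CPM in HC and 0.932 CPM in NC, and a difference was not detectable at this depth, with a log2 fold of -0.54 (-1.38 to 0.26). Nearly all counts of precursors listed here with the miR-30 5p seed thus came from the family.

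The make-up of the family does not depend on how the libraries are scaled, since it is a share within each library. With the miR-30e locus counted once, the family held 1317100 counts in HC and 1873196 in NC. miR-30a made up 69.9% of them in HC (69.8 to 70.0% by the exact interval) against 71.6% in NC (71.5 to 71.7%). miR-30d made up 11.8% in HC (11.8 to 11.9%) against 10.7% in NC (10.7 to 10.8%). miR-30a thus took 1.69 percentage points less of the family in HC, and miR-30d took 1.12 points more. The shares add up to the whole family, so less of miR-30a means more of the others by construction. A higher share is not a higher level. The shares of the remaining members were each higher in HC by 0.327 points or less: miR-30e took 8.92% in HC and 8.60% in NC, both miR-30c hairpins together 8.47% and 8.25%, and miR-30b 0.872% and 0.856%, with overlapping intervals for miR-30b alone.

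**Figure D2:**
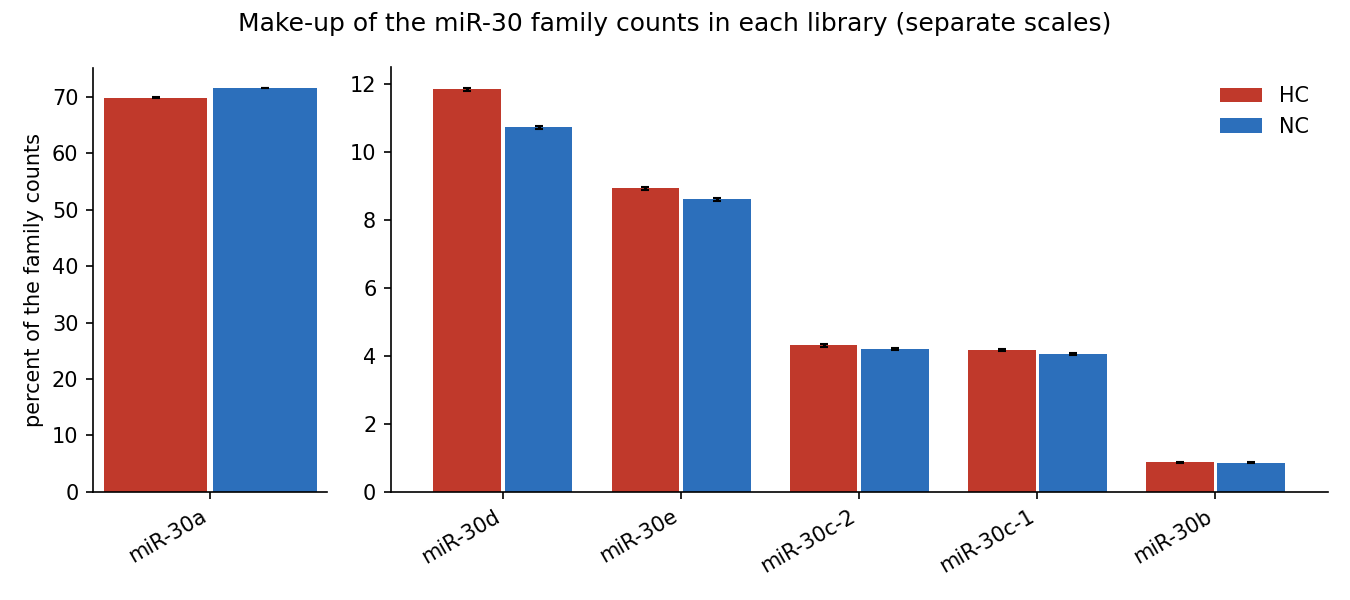
Percent of the miR-30 family counts taken by each member in the HC library and the NC library (miR-30e locus counted once), with exact 95% intervals of counting error as error bars. miR-30a has a scale of its own at left, with 71.6% in NC and 69.9% in HC, and miR-30d at right shows the widest gap among the others.

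Of the 15 pairs among the 6 members counted, the ratio differed between HC and NC beyond counting error in 9, with no adjustment over the pairs. These are the pairs that hold miR-30a or miR-30d. The other 6 are all the pairs among miR-30b, miR-30c-1, miR-30c-2 and miR-30e. The miR-30c hairpins share reads, so their pairs are not separate, and miR-30b has wide intervals. The share over pairs of other precursors was not computed. Calls for single precursors, a different measure that depends on the scaling, were common at this depth. With TMM, the intervals of 39.6% of compared precursors lay above 0 and of 43.7% below. The widest gap was that of miR-30a over miR-30d, with a ratio of 5.91 in HC and 6.69 in NC. The log2 ratio of these ratios was -0.18 (Wald interval -0.19 to -0.17). For miR-30a over miR-30e, whose 5p arms differ by 1 base, the ratio was 7.83 in HC and 8.33 in NC, a log2 ratio of ratios of -0.088 (-0.10 to -0.077). Whether such gaps exceed the spread between animals could not be tested with 1 library per group.

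Members of one cluster lie close together in the genome and can come from 1 primary transcript. miR-30d over its partner miR-30b was 13.6 in HC and 12.5 in NC, a log2 ratio of ratios of 0.12 (0.080 to 0.15). miR-30a over miR-30c-2 was 16.3 in HC and 17.1 in NC, or -0.073 (-0.090 to -0.057). miR-30e over miR-30c-1, both within Nfyc, was 2.14 in HC and 2.12 in NC, and the log2 ratio of ratios of 0.016 (-0.0035 to 0.035) had an interval that held 0. The values for miR-30c carry reads of both its hairpins. Among the 63 other pairs of neighbouring compared precursors within 20 kb, neither copies nor overlapping, the median absolute difference in log2 fold was 0.20. A larger difference than in the miR-30b and miR-30d pair was seen in 66.7% of those pairs, a larger one than in the miR-30a and miR-30c-2 pair in 79.4%, and a larger one than in the miR-30e and miR-30c-1 pair in 95.2%. The miR-30 clusters were thus not among the neighbours that differed most. Those other pairs were not matched for depth, so many carry more counting error, and some precursors enter more than 1 pair.

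As a whole, the family was close in level between the libraries. It took 4.22% of all precursor counts in HC (4.21 to 4.23% by the exact interval) against 4.27% in NC (4.27 to 4.28%). The log2 fold of the sum was -0.151 (-0.154 to -0.148), or 1.11-fold lower in HC. Without miR-30a, the sum of the others had a log2 fold of -0.068 (-0.074 to -0.062), so miR-30a set much of the value. By cluster, the log2 fold was -0.18 on chromosome 1, -0.10 on chromosome 4 and -0.016 on chromosome 15.

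The direction of these small values depended on the scaling. With TMM, the counting interval lay below 0 for 6 of the 7 members (all but miR-30d) and above 0 for none, where 43.7% of all compared precursors lay below 0 and 39.6% above. The 7 rows are not separate values, as miR-30f repeats miR-30e and the miR-30c hairpins share reads. With 1 precursor kept per set of copies or overlapping precursors, 4 lay below 0 and 0 above, and the interval of miR-30d held 0. The share over all precursors kept by that rule was not computed, so this count has no like share beside it. With plain totals, which move every log2 fold up by 0.13, 5 members lay above 0 and 1 below (60.8% and 21.2% of all compared). miR-30a was the one below at -0.052, and miR-30d stood highest at 0.13. The denominators of the authors' own scaled column move every value down by 0.11, and with them 233 precursors reached the mean of 10 CPM. All 7 members then lay below 0 and 0 above (57.9% and 24.0% of those 233), from -0.30 for miR-30a to -0.12 for miR-30d. The remaining scalings stood close to TMM: median-of-ratios size factors put 6 members below 0 and 0 above (41.4% and 41.0% of all compared). Upper-quartile factors put 6 below and 1 above (36.5% and 45.0%), and totals without the 10 most abundant precursors put 6 below and 0 above (39.2% and 43.7%). The median log2 fold of the 7 members was -0.11 with TMM, 0.022 with plain totals and -0.22 with the authors' denominators. The medians over all compared precursors were -0.0007, 0.13 and -0.11, the last over the 233. miR-30a alone lay below 0 with each of the 6 scalings tried. A scaling shifts all members alike, so miR-30a as the lowest member and miR-30d as the highest hold in each by construction.

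**Figure D3:**
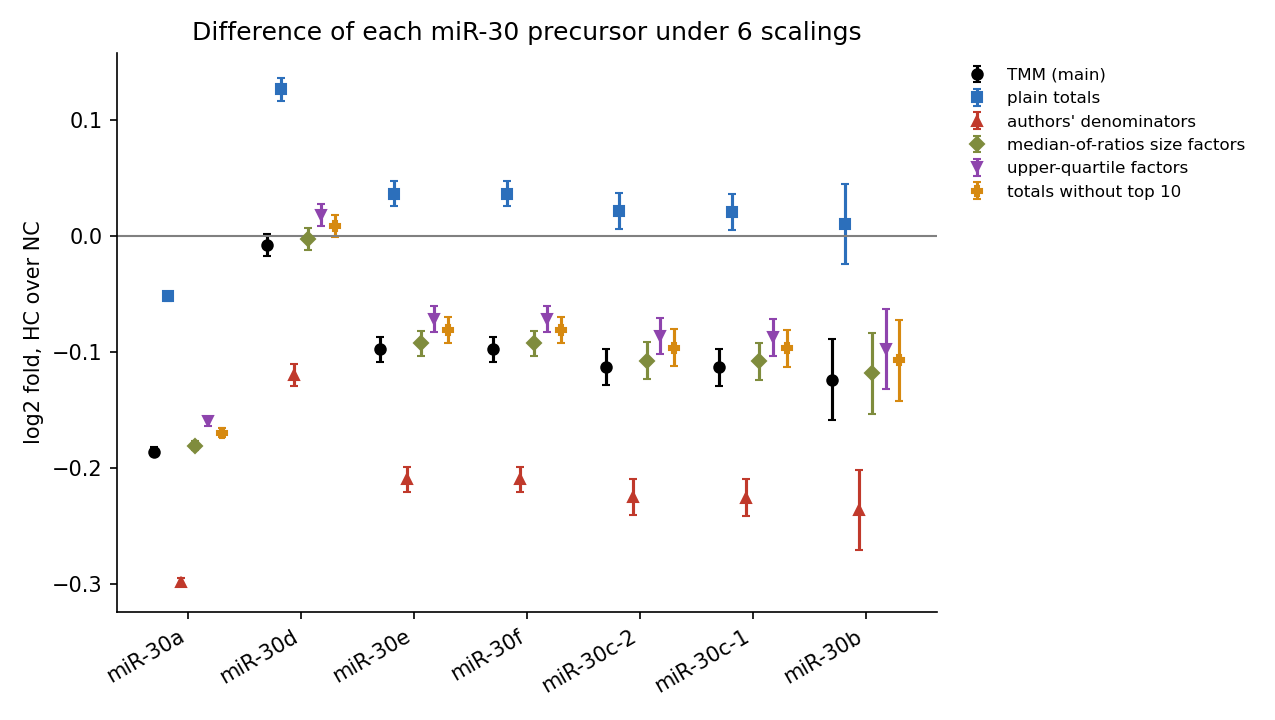
Log2 fold of HC over NC for each miR-30 precursor under 6 ways of scaling the libraries, with exact conditional 95% intervals of counting error as error bars. The scalings shift all members alike, between -0.30 and -0.052 for miR-30a, so the order of the members, with miR-30d highest, is fixed by construction.

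No member came near the size rule used in place of a test, a fold of 2 or more among the compared precursors, with an interval that excludes equality. The count was 0 higher and 0 lower of 7, where 1.35% of the compared precursors were higher and 0.901% lower by that rule. At a fold of 1.5 it was again 0 in each direction (2.70% higher and 4.50% lower among all compared). Of all compared precursors, 92.8% lay within 1.5-fold, so the closeness of the 7 members is the common state in these libraries. Among the 56 abundant precursors, whose mean reached 1000 CPM, the middle 50% of log2 folds ran from -0.15 to 0.13. All members but miR-30a lay inside that range, and miR-30a lay just below it. miR-30b, with a mean of 367.3 CPM, is not itself one of the 56.

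**Figure D4:**
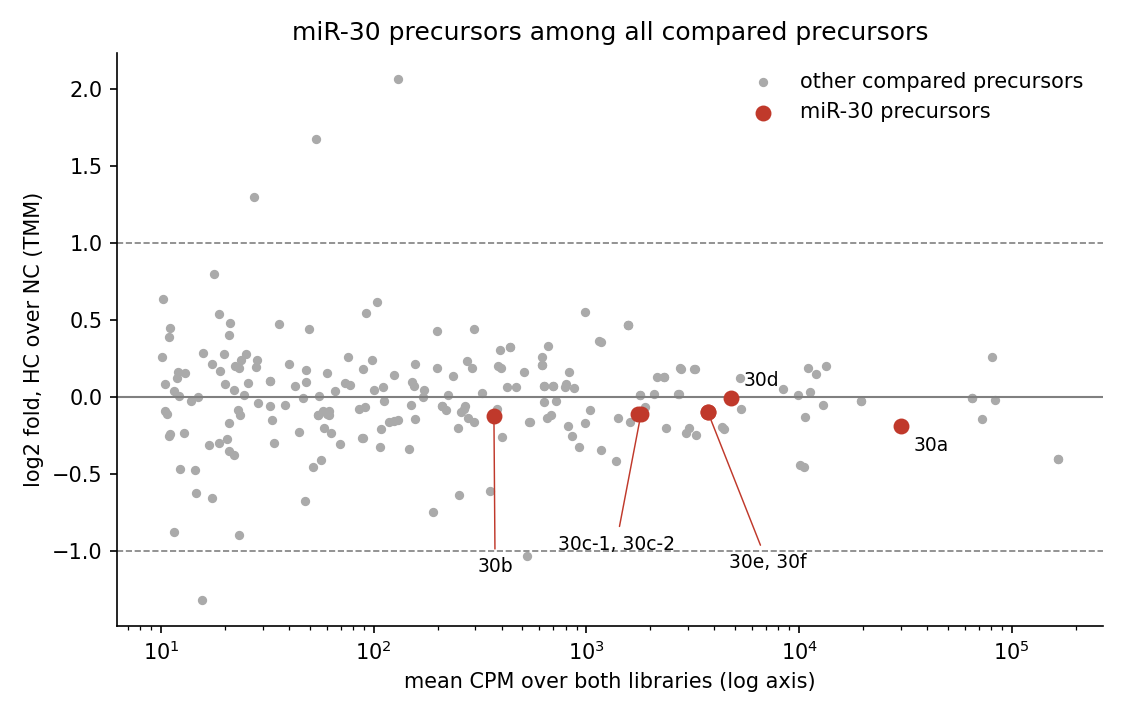
Log2 fold of HC over NC (TMM) against the mean CPM over both libraries (log axis) for the 222 compared precursors, with the 7 miR-30 precursors in red. Dashed lines mark 2-fold, which no miR-30 precursor approaches, and all 7 lie between -0.19 and -0.0074.

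The miR-30 sum was set beside other broadly expressed families that have several loci. These values are with TMM. The let-7 family, which restrains growth and promotes differentiation, had a log2 fold of its sum of -0.23. Its 11 compared precursors spread from -0.45 to 0.26, with a median of 0.018. The lowest of them, let-7f-1 and let-7f-2, held the most counts of the family. The miR-26 family, hosted in the Ctdsp genes, lay at -0.022, with its 3 precursors from -0.025 to 0.019. The direction of that sum turned with plain totals (0.11) and with upper-quartile factors (0.0036). The miR-181 family lay at 0.18, with 6 precursors from -0.26 to 0.36. The miR-29 family, known for repressing collagens, lay at 0.090, with 4 precursors from 0.061 to 0.24, and its sum turned to -0.023 with the authors' denominators. The range over the miR-30 members was 0.18, against 0.72 for let-7, 0.62 for miR-181, 0.18 for miR-29 and 0.044 for miR-26, and these ranges were not tested against each other. In these sums, reads of copies may be entered more than once.

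Free of the scaling, the ratio of miR-30 to let-7 counts was 1.16 in HC and 1.10 in NC, a log2 ratio of ratios of 0.079 (0.075 to 0.084). The corresponding ratio to miR-26 was 0.984 in HC and 1.08 in NC, or -0.13 (-0.13 to -0.12). The ratio to miR-181 was 1.47 in HC and 1.85 in NC, a log2 ratio of ratios of -0.33 (-0.33 to -0.32). That to miR-29 was 34.8 in HC and 41.1 in NC, or -0.24 (-0.26 to -0.22). By these sums, the miR-30 family was lower in HC relative to miR-26, miR-29 and miR-181 and higher relative to let-7. Each of these differences lay beyond counting error. The let-7 direction leans on let-7f-1 and let-7f-2, at log2 folds of -0.44 and -0.45 with TMM. The median let-7 precursor lay at 0.018, above the miR-30 median of -0.11. The ratio without let-7f was not computed.

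In level, the precursors outside the family nearest to miR-30a, by the distance in log2 CPM over the 2 libraries and with 1 kept of each set of copies or overlapping precursors, were miR-26a-1 (19445 CPM in HC, 19780 in NC), miR-133a-1 (65127 and 65383), miR-10a (14333 and 12458) and miR-27b (12665 and 13143). Their log2 folds were -0.025, -0.0057, 0.20 and -0.053. The log2 fold of miR-30a, -0.19, lay below those of these 4 neighbours, and a change of scaling shifts all of them alike. With 2 libraries, likeness of pattern over conditions is a single difference and was not ranked.

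Lists of miRNAs known to act on the same processes as miR-30 are described beside all compared precursors, of which 39.6% lay above 0 and 43.7% below by their intervals with TMM. Of 15 lipid and cholesterol miRNAs, 9 were compared. Among these, 4 lay above 0 and 5 below, with a median log2 fold of -0.025, beside a median of -0.0007 over all compared precursors. The most abundant, miR-26a-1 and miR-26a-2, each lay at -0.025. Of the 12 fibrosis and matrix miRNAs, 7 lay above 0 and 4 below, with a median of 0.097. The 7 above 0 were all rows of miR-29 or miR-199. In that list miR-133a-1 and miR-133a-2, which act with miR-30 on connective tissue growth factor, lay at -0.0057 and -0.0059. Of 18 miRNAs of endothelium and sprouting, 16 were compared, 7 above 0 and 7 below, with a median of -0.0018. There miR-10b lay at -0.018 and miR-10a at 0.20. The counts of these short lists were not tested against those shares. The lists hold copies, such as miR-26a-1 with miR-26a-2 and miR-133a-1 with miR-133a-2, so their rows are not all separate values. None of these lists held a member past the 2-fold rule. These directions hold for TMM and shift with the scaling as above.

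Whole muscle holds several cell types, and fewer cells of a type and less RNA per cell cannot be told apart in it. Marker directions here are those with TMM. The 2 erythrocyte markers summed to 608.8 CPM in HC and 467.9 in NC, and both were above 0 by their intervals. The 4 leukocyte markers summed to 2303 CPM in HC and 2298 in NC, with 1 above 0 and 1 below. The 2 endothelial markers summed to 21310 CPM in HC and 20948 in NC, and the 2 smooth muscle markers to 69344 in HC and 76571 in NC, both below 0. The 7 epithelial markers summed to 139.5 CPM in HC and 187.8 in NC, and the 5 of them that were compared lay below 0. None of these markers was at 0 counts. The 9 muscle markers summed to 277821 CPM in HC and 323375 in NC, 4 above 0 and 5 below. The lower sum in HC rests on miR-486a, the most abundant of them, at a log2 fold of -0.40. miR-133a-1 and miR-133a-2, the next in counts, lay at -0.0057 and -0.0059. The 4 above 0 were miR-1a-1, miR-1a-2, miR-208b and miR-499. The sum is therefore no measure of the amount of muscle. In these marker sums, reads of copies or overlapping precursors may be entered more than once. This holds for miR-126a with miR-126b, miR-1a-1 with miR-1a-2 and miR-133a-1 with miR-133a-2, so the rows are not all separate markers. The part of these cell types in the miR-30 values was not tested.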

How the data were processed

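The files hold, per the file headers and the submitters' processing notes, whole-number read counts per miRNA precursor for 1 library per group, and notes name CASAVA 1.8.2, TopHat2 2.0.10, HTSeq 0.5.4 and the build mm10. How reads were trimmed, which strand setting was used and how reads with several alignments were handled is not stated there. A second deposited column, headed RPM by the authors, was treated as a signal: it is a constant multiple of the count, and its sums exceed 1e6, so it served only for an alternative scaling. The rows for reads outside all precursors (55.9% of listed counts in HC, 44.1% in NC) stayed out of library sizes and comparisons.

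Groups follow the phenotype labels. Library sizes were scaled by TMM (edgeR 4.0.16, R 4.3.3), without any edgeR test. Log2 folds compare HC with NC after division by these library sizes, without a pseudocount, and carry an exact conditional binomial (Clopper-Pearson) interval. Ratios of ratios have Wald intervals on the log scale. Comparisons were limited to precursors whose mean over both libraries reached 10 CPM. Alternatives were plain totals, the authors' denominators, DESeq2 1.42.0 size factors, upper-quartile factors, totals without the 10 most abundant precursors, other filters, and copies or overlapping precursors counted once. The procedure was tested on simulated counts. Named miRNAs were all 7 members, the 4 precursors nearest in level to miR-30a, and from each list any member past the 2-fold rule, or else the 2 with the most counts. Members and lists were chosen with earlier results of these data known. Sequences are from RefSeq (GRCm38.p6), whose hairpin coordinates equal those of the files for the 4 members with a hairpin entry.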

Additional observations from a re-analysis of the deposited data

Results flagged for a closer look

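Listed counts outside all miRNA precursors, which took no part in the comparisons, made up 55.9% of counts in HC and 44.1% in the control NC. Their part in the miR-30 values was not tested.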

How the results depend on the processing

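No paired analysis was possible because each group held 1 library, and for the same reason no replicate could be left out. Of 42 alternative values for the log2 folds of the 7 members, 34 lay below 0 and 8 above. These are not separate checks. They come from 5 alternative scalings, each a constant shift of all members, and a pseudocount of 1 count, which is negligible at these counts. The values of miR-30f repeat those of miR-30e. With plain totals, the values changed sign for miR-30d (0.13), miR-30c-2 (0.022), miR-30c-1 (0.021), miR-30b (0.011), miR-30e and miR-30f (0.037 each), and the median of the members became 0.022. By their intervals 5 of these lay above 0, all but miR-30b, whose interval held 0, and 1 member, miR-30a, lay below. Upper-quartile factors put the interval of 1 member, miR-30d, above 0. The median was -0.22 with the authors' denominators, -0.086 with upper-quartile factors and -0.096 with totals without the 10 most abundant precursors. The log2 fold of the family sum was -0.017 with plain totals, -0.26 with the authors' denominators, -0.15 with median-of-ratios size factors, -0.13 with upper-quartile factors, -0.13 with totals without the 10 most abundant precursors, -0.15 over all 7 rows and -0.068 without miR-30a. The share of the family was 5.08% in HC and 5.32% in NC with 1 precursor kept per overlapping set, and 4.05% and 4.10% with miR-30c counted once, an alternative chosen after seeing the data. The miR-26 sum changed sign with plain totals (0.11) and upper-quartile factors (0.0036), and the miR-29 sum with the authors' denominators (-0.023). The scalings change these values by construction, as they shift all precursors alike. All 20 alternative counts past the size rule were 0. They add little, as every member passes each filter and the shifts between scalings are far smaller than the distance to 2-fold. Depth limits miR-384 most among the miRNAs with the miR-30 seed, and within the family it limits miR-30b most. The spread between animals is unknown for every value.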
